A study of Homo sapiens with 6 samples.

Results

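Turnover of messenger RNA was described in MOLM-13 cells that had received only the DMSO vehicle. The description rests on the 3 DMSO control libraries among the 6 libraries of the series, and the libraries treated with the acetyltransferase inhibitor C646 were not compared. MOLM-13 is an established cell line of secondary acute myeloid leukaemia with an internal tandem duplication of FLT3 and an MLL-AF9 fusion. All cells were in DMSO for 2 h, and 100 µM 4-thiouridine (4sU) was present for the second hour, so the cells were untreated only in the sense of being vehicle treated. The genes described are the 6627 of 25420 annotated genes that had at least 100 reads in each of the 3 DMSO libraries.

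In thiol-linked alkylation sequencing (SLAM-seq), cells build 4sU into the RNA they transcribe during labelling. Alkylation of the extracted RNA then makes the reverse transcriptase read the labelled uridine as cytidine, and a read from new RNA carries T>C conversions. At steady state, an mRNA that is made and degraded quickly is replaced by labelled copies within the labelling time, whereas a long-lived mRNA stays mostly unlabelled. Transcripts of immediate early genes and of many transcriptional regulators are known for short lives, and those of ribosomal proteins and metabolic enzymes for long lives. The quantity given throughout is the T>C share of a gene, that is, the percentage of its 3′ UTR reads that the tables count as T>C reads after 1 h of 4sU. A T>C read is taken here to hold at least 1 T>C conversion, which the tables do not define. This is looser than the criterion the study set for reads in its differential expression analysis. It is neither a half-life nor free of sequencing errors, since no unlabelled DMSO library was analysed here and the share read without 4sU is unknown.

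The 3 libraries held 9404748, 7252597 and 7328025 reads in 3′ UTRs (replicates 1, 2 and 3), of which 833410, 635616 and 640615 were T>C reads. The T>C reads made up 8.79% ± 0.0637 (SD, n = 3) of all reads and carried 2.05 ± 0.0576 conversions each inside the 3′ UTR. Of 21 myeloid leukaemia markers, 15 exceeded 10 RPM (reads scaled to a fixed library total of 3′ UTR reads) in each library. The sum of all 21 was 4678 to 5021 RPM, to which LYZ alone gave 2817 RPM on average. CD34 was at 0. KIT, CD14, AZU1, ELANE and PRTN3 also missed the limit, with means of 0.402, 0.0354, 0.532, 0.916 and 8.34 RPM. The T cell markers CD3E, CD3G, CD2 and CD8A were at 0 and CD4, which monocytic cells also carry, made up nearly all of that list's 251.8 to 374.0 RPM. The sums of B cell, erythroid, platelet, epithelial and stromal markers were at most 6.17 RPM in any library. Nothing in the labels says whether the replicates came from separate cultures, so the p-values measure the spread between these libraries only.

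The share differed widely among genes, and its distribution over the genes differed little among libraries. The median gene had a T>C share of 10.57% in replicate 1, 10.50% in replicate 2 and 10.27% in replicate 3, which gives 10.4% ± 0.157 (SD, n = 3). Ranked by the mean over the libraries, the lowest decile of the genes had shares up to 4.03% and the highest decile had shares from 27.1%. A share above 50% in each library was found for 86 genes and a share below 2% in each library for 37 genes. The standard deviation of a gene's share over the 3 libraries had a median of 1.72 percentage points. The ratio of this standard deviation to the binomial standard error of the gene had a median of 1.30. Because the standard deviation of 3 values is skewed, this median ratio understates the excess of the spread over counting error. Spearman's rho between the shares of pairs of libraries was 0.89 to 0.90 across the 6627 genes. The distribution of shares by library shows the 3 libraries lying on one another.

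**Figure D1:**
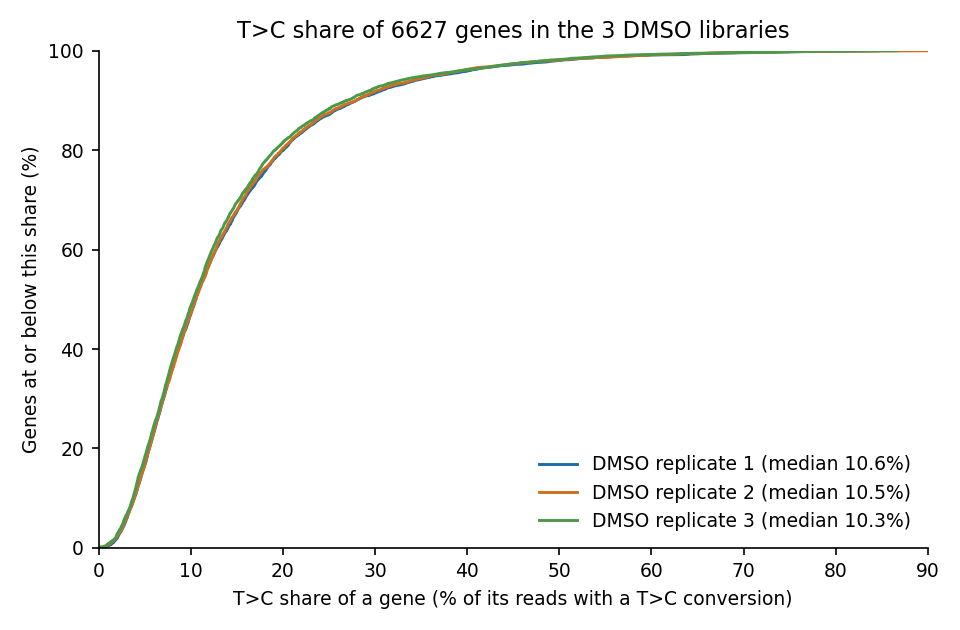
Cumulative percentage of the 6627 genes (vertical axis) at or below a given T>C share in percent of reads (horizontal axis), 1 line for each DMSO library. The 3 lines run close together, with medians of 10.6%, 10.5% and 10.3%.

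Each gene was compared with the median gene of the same library by an edgeR quasi-likelihood test. A share of at least 2 times that of the median gene, with a Benjamini-Hochberg adjusted p of at most 0.01, is called high, and a share of at most 0.5 times is called low. Of the 6627 genes tested, 1134 had a high share (17.1%) and 1109 a low share (16.7%), and these percentages are the background for the counts of gene groups. The high genes had mean shares of 20.8% to 87.0% and the low genes 0.560% to 5.56%. Measured against the pooled share of the library in place of the median gene, 1721 genes were high and 659 low, so that 72.3% of the calls were high in place of 50.6%.

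Among genes with on average at least 300 reads and 1.5 conversions per T>C read, few multimapped reads and no overlapping 3′ UTR, the 10 highest shares belonged to MYC, CISH, MYLIP, CDKN1B, HBEGF, ZFP36L2, NFKBIA, JUNB, ZNF587B and SNHG1. MYC, the proto-oncogene transcription factor, had T>C shares of 84.01%, 85.7% and 83.02% in replicates 1, 2 and 3. CISH, a feedback inhibitor of STAT5 signalling that is itself induced by STAT5, had 78.2%, 83.3% and 80.7%. MYLIP, a ubiquitin ligase, had 82.1%, 78.7% and 77.3%. More than 3 in 4 reads of each of these transcripts were thus T>C reads, and MYC lay above MYLIP in each library. CDKN1B, the cell cycle inhibitor p27, had 81.8%, 73.03% and 79.9%, the widest range of the 10 highest genes. HBEGF, an EGF receptor ligand, had 80.2%, 78.997% and 74.3%. ZFP36L2, a protein that binds AU-rich elements and speeds the decay of its targets, had 76.9%, 75.9% and 76.5%. With a mean of 3019 reads it was the most abundant of the 10 and the most even between libraries (76.4% ± 0.465, SD, n = 3). NFKBIA, the inhibitor of NF-kB that NF-kB induces, had 76.9%, 77.2% and 73.4%. JUNB, an AP-1 subunit, had 75.8%, 72.8% and 74.9%, and ZNF587B, a zinc finger gene, had 72.3%, 73.9% and 75.8%. SNHG1, a noncoding host gene of small nucleolar RNAs, had 67.4%, 69.8% and 71.9%. All 10 genes exceeded the median gene severalfold in every library: the log2 ratio ran from 2.73 ± 0.053 (SE) for SNHG1 to 3.01 ± 0.052 for MYC, with edgeR adjusted p of 1.0e-39 and 7.5e-42. A rarer transcript, DUSP2, an ERK phosphatase with a mean of 187.3 reads, had the highest share of any gene (84.7%, 90.6% and 85.8%).

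The most used 3′ UTR of 9 of these 10 genes lies at chr3:50606454-50607606 (CISH, minus strand), chr6:16146752-16148247 (MYLIP, plus), chr12:12721036-12722382 (CDKN1B, plus), chr5:140332843-140334280 (HBEGF, minus), chr2:43222402-43224318 (ZFP36L2, minus), chr14:35401510-35402012 (NFKBIA, minus), chr19:12792816-12793311 (JUNB, plus), chr19:57844343-57846238 (ZNF587B, plus) and chr11:62851988-62852681 (SNHG1, minus) of GRCh38. For SNHG1, which has no reading frame, this entry is an exon of the noncoding transcript; for the other 8, GENCODE release 44 also places a UTR of the same gene there.

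AU-rich elements in a 3′ UTR are bound by proteins, ZFP36L2 among them, that recruit deadenylases. The nonamer TTATTTATT, the core of such elements, is present in the most used 3′ UTR of 6.97% of the 6627 genes. It is shown here, in capitals, with its neighbouring bases on the transcript strand of GRCh38 for the 6 genes with the highest shares among those that have it, a high share, at least 300 reads on average and at least 1.5 conversions per T>C read.
CISH (chr3:50607093-50607122, minus): tatacactatTTATTTATTtattctccttg
ZFP36L2 (chr2:43223447-43223476, minus): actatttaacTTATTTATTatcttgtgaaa
TBCC (chr6:42744603-42744632, minus): cgccagggctTTATTTATTtatttttacca
SERTAD2 (chr2:64632853-64632882, minus): cccccataagTTATTTATTccttttttctg
AEN (chr15:88631182-88631211, plus): tgcctgacctTTATTTATTtattaacagca
ZEB2 (chr2:144388427-144388456, minus): tttcctaattTTATTTATTtcatactgtag
TBCC (a tubulin folding cofactor), SERTAD2, AEN (a nuclease) and ZEB2 (a zinc finger repressor) had shares of 65.8%, 63.2%, 61.6% and 58.1%. CISH, TBCC, AEN and ZEB2 each hold 2 copies of the nonamer, which overlap in CISH, TBCC and AEN and lie apart in ZEB2. MYC, MYLIP, CDKN1B, HBEGF, NFKBIA, JUNB, ZNF587B and SNHG1 hold no copy in the entry used, and each of these holds 1 to 7 copies of the shorter ATTTA.

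At the other end, among genes with on average at least 1000 reads, at most 10% multimapped reads and no overlapping 3′ UTR, the 10 lowest shares included those of 2 subunits of respiratory complex I and 3 ribosomal proteins. NDUFA11, an accessory complex I subunit, had T>C shares of 0.847%, 1.02% and 1.48% in replicates 1, 2 and 3. SSR4, a subunit of the translocon-associated complex of the endoplasmic reticulum, had 0.947%, 1.43% and 1.26%. RPS3, a protein of the small ribosomal subunit, had 1.46%, 1.201% and 1.27% over a mean of 32537 reads. All of these values lie within the lowest decile of the genes, which ended at 3.72% to 3.88% in the 3 libraries. RPL36, of the large subunit, had 1.304%, 1.62% and 1.26%. PSAP, the precursor of the saposins of the lysosome, had 1.498%, 1.38% and 1.51%, and PRDX2, a peroxiredoxin, had 1.26%, 1.99% and 1.17%. APOC1, an apolipoprotein, had 2.15%, 1.65% and 0.8302% and so differed most between libraries among the 10. NDUFA13, another complex I subunit, had 1.54%, 1.93% and 1.21%. TYROBP, the adaptor DAP12 of myeloid receptors, had 1.66%, 1.33% and 1.76% over 16302 reads. RPS24 had 1.6002%, 1.599% and 1.696% over 51277 reads, the smallest standard deviation of the 10 (1.63% ± 0.0556, n = 3). The log2 ratio to the median gene ran from -3.25 ± 0.240 (SE) for NDUFA11 to -2.68 ± 0.070 for RPS24, with edgeR adjusted p of 8.8e-17 and 1.6e-34. Neighbours in this order overlapped in their values, whereas NDUFA11 stayed below RPS24 in each library.

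**Figure D2:**
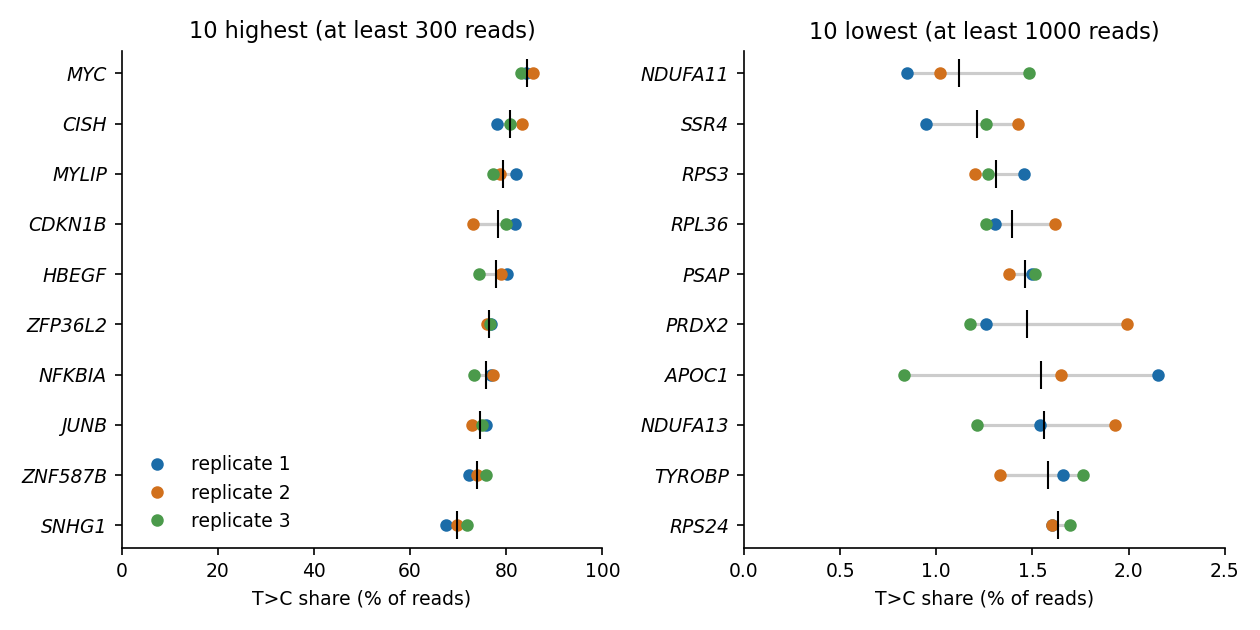
T>C share in percent of reads (horizontal axes, on different scales) of the 10 highest genes with at least 300 reads and 1.5 conversions per T>C read and the 10 lowest with at least 1000 reads, both without genes of over 10% multimapped reads or an overlapping 3′ UTR; points are the 3 DMSO libraries and the short vertical bars their means. The highest genes lie between 67.4% and 85.7% and the lowest between 0.830% and 2.15%.

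The low genes differ from the high ones in the sequence that was read. Reads in a short or T-poor 3′ UTR cover fewer of its T: SSR4 had 9.49 covered T per read, RPL36 had 7.42 and NDUFA13 had 10.99, against 30.6 for the median gene. PSAP, with 29.3 covered T per read, was as low as these. Covered T are counted inside the 3′ UTR only. T>C reads are not, since 141 genes had fewer than 1 conversion inside the 3′ UTR per T>C read. How far the number of covered T sets the share was not tested. Counted as conversions per covered T, which takes the number of T into account, the 10 lowest genes had 0.0764 (NDUFA11) to 0.149 (RPL36) conversions per 100 T and the 10 highest 3.19 (ZNF587B) to 6.98 (HBEGF), against 0.700 for the median gene. The most used 3′ UTRs of the 10 lowest genes lie at chr19:5894670-5894854 (NDUFA11, minus strand), chrX:153798434-153798512 (SSR4, plus), chr11:75405583-75406913 (RPS3, plus), chr19:5691622-5691667 (RPL36, plus), chr10:71816283-71817440 (PSAP, minus), chr19:12796820-12797080 (PRDX2, minus), chr19:44919231-44919349 (APOC1, plus), chr19:19528127-19528204 (NDUFA13, plus), chr19:35904401-35904634 (TYROBP, minus) and chr10:78040615-78040715 (RPS24, plus) of GRCh38.

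Abundant transcripts had lower shares than rare ones. In the fifth of the genes with the fewest reads (101.0 to 207.0 on average) the median share was 14.7% ± 0.0833 (SD, n = 3 libraries), and 30.8% of the genes were high and 7.99% low. In the fifth with the most reads (from 1092) it was 6.73% ± 0.162, and 5.13% were high and 34.4% low. Reads are the denominator of the share, so the 2 quantities are not independent; Spearman's rho between them was -0.35 across the 6627 genes. The 1109 low genes took up 42.0% ± 0.851 of all reads of a library but 16.03% ± 0.448 of its T>C reads, and the 1134 high genes 6.06% ± 0.140 of the reads and 22.5% ± 0.361 of the T>C reads.

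Abundant transcripts with modest shares also yielded many T>C reads. SRGN, the proteoglycan serglycin of myeloid granules, yielded the most T>C reads of any gene (7384 on average), with 107729 reads and a share of 6.87% ± 0.325, which is below the median gene and passed no call. ZFP36L2 ranked sixth with 2310 T>C reads from 3019 reads, and TXNIP, a glucose-responsive arrestin that restrains glucose uptake, ranked 10th with 1840 T>C reads from 3049 reads (61.1%, 57.7% and 61.8%). TPT1, a translationally controlled tumour protein with 109488 reads, had as little as 2.52% ± 0.105. EIF4A1 (21.4% ± 1.82), the RNA helicase of translation initiation, had the most reads of all high genes, 5318, and MYB (28.8% ± 1.04), a transcription factor on which many such leukaemias depend, came next with 4290. EIF4A1, named after its values were seen, lost its call without replicate 2 (log2 ratio 0.98). EEF1A1, second by T>C reads, had 71.8% multimapped reads, and its share of 4.98% ± 0.666 may hold reads of its many near-identical copies.

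**Figure D3:**
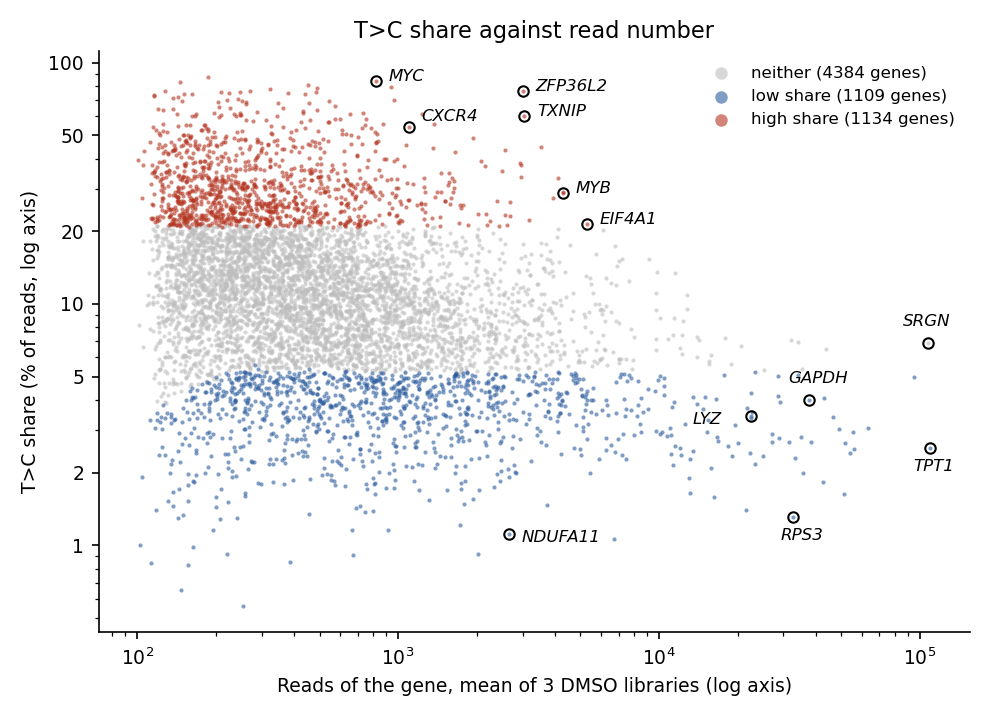
T>C share in percent of reads (vertical axis, log scale) against the mean number of reads over the 3 DMSO libraries (horizontal axis, log scale); points are the 6627 genes, coloured by call. Low genes extend to 109488 reads (TPT1), whereas the high genes with the most reads, EIF4A1 (not called without replicate 2) and MYB, have 5318 and 4290.

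Gene groups were laid out by function in 48 lists with at least 1 measured gene. Of the 38 lists with at least 10 measured members, ZNF zinc finger genes (30.03%) and myeloid lineage factors (29.1%) had the highest medians, and cytosolic ribosomal proteins (3.11%), granule and lysozyme genes (3.62%) and nuclear genes of oxidative phosphorylation (4.34%) the lowest. These lists are described by counts and medians beside the background of 17.1% high and 16.7% low, with no test of a list as a whole.

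Most measured genes of the immediate early and AP-1 list and of the KLF and SP list were high. Of the 26 immediate early and AP-1 genes, which respond to growth signals within minutes, 9 reached 100 reads, and 6 of these were high and none low, with a median of 45.7% ± 2.84 (SD over the 3 libraries). With a minimum of 500 reads 3 genes were left and their median log2 ratio was 1.08 in place of 2.12. JUNB stood at 74.5% ± 1.51, IER5 at 58.1% ± 4.797 and MAFG, a small MAF partner of NRF2, at 45.5% ± 3.14. JUND, the AP-1 subunit known to be constitutively expressed, differed from JUNB in every library (14.1%, 17.5% and 14.4%) although it had 9174 reads against 377.7. SRF, which drives immediate early genes, had 16.4% ± 1.53, and BATF was lowest with 12.5% ± 3.22. Of 7 measured KLF and SP factors, which bind GC-rich promoters, 6 were high; KLF11 (73.03% ± 8.67) and KLF6 (70.4% ± 3.47) led, and SP1 (25.2% ± 2.74), SP3 (28.6% ± 4.44), KLF16 (21.5% ± 5.18) and SP2 (20.8% ± 2.82) were lower. KLF16 lost its call without replicate 2 (log2 ratio 0.81), and SP2 gained one without replicate 1 (1.08).

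Zinc finger genes of the ZNF series formed the largest group. Of the 101 measured ZNF genes, many of which encode KRAB repressors, 69 were high (68.3%) and 1 was low, with a median of 30.03% ± 2.198. ZNF267 reached 76.7%, 85.3% and 86.7%, and ZNF521, a repressor of early haematopoietic cells, 34.01%, 33.6% and 28.9%. The members with the most reads were mixed: ZNF395 had 16.6% ± 1.15, ZNF706 10.3% ± 1.53 and ZNF207, which acts at the mitotic spindle, 6.498% ± 0.762. The 1 low member, ZNF185, had 4.39% ± 1.602 and is a LIM domain protein of the actin cytoskeleton.

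Factors that define the leukaemic state were mostly high. Of 24 measured myeloid lineage factors, 18 were high and none low, with a median of 29.1% ± 0.963. IRF1, an interferon-responsive factor, had 64.2%, 60.9% and 56.2%. CEBPA, a regulator of granulocytic differentiation, had 40.7%, 40.99% and 30.8%, with replicate 3 below the other two. MYB had 29.9%, 27.8% and 28.8%, and IKZF1, a lymphoid and myeloid regulator, 23.3% ± 0.183. SPI1, which encodes PU.1, was the lowest member at 7.42%, 7.16% and 6.36%, below every value of MYB and CEBPA, and did not pass the call. Of 7 measured HOXA genes and cofactors, a program that MLL fusions maintain, 6 were high. HOXA5 had 65.3%, 69.4% and 76.2%, HOXA9 41.8%, 38.6% and 39.6%, HOXA10 25.1%, 31.3% and 27.9%, MEIS1 33.4%, 29.97% and 35.5% and PBX3 26.4%, 26.5% and 26.9%. HOXA7 alone stood near the median gene (13.97%, 7.94% and 11.6%), and its values lay below all those of the other named members.

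In the MYC network 2 of 7 genes were high and none low. MAX, the obligate partner of MYC, had 11.9%, 13.3% and 6.74%, MXI1 17.98% ± 0.966 and MLXIP 13.3% ± 2.18, and none of these 3 passed the call, whereas the MYC antagonist MNT was high at 29.9%, 32.05% and 33.2%. MXD4 was lowest with 6.94% ± 3.62. Among genes of FLT3 and STAT5 signalling, 6 of 14 were high and 2 low. The feedback inhibitor CISH and the kinase PIM1 (50.1%, 53.2% and 51.2%), both known STAT5 targets, lay far above the receptor FLT3 (18.2%, 15.7% and 12.7%) and the signal carriers TYK2 (6.45% ± 1.44), STAT6 (4.696% ± 0.563) and STAT3 (3.68%, 3.92% and 4.03%), of which STAT6 and STAT3 were low. Against genes with a similar number of covered T per read neither was called (log2 ratio -0.97 and -0.88), and no gene of this list was low. In the NF-kB list 3 of 8 genes were high and none low; the inhibitor NFKBIA stood at 75.8% ± 2.13, and the subunits REL, NFKB1 and RELA at 30.4% ± 6.23, 15.4% ± 2.53 and 12.6% ± 2.64, of which REL was high. TNIP1 was lowest with 6.75% ± 1.43.

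In the BCL2 family, which governs apoptosis, 6 of 11 were high and none low. The BH3-only genes PMAIP1, which encodes NOXA (66.01%, 67.9% and 73.8%), and BBC3, which encodes PUMA (33.5%, 34.8% and 33.5%), were high, as were the survival genes MCL1 (28.5%, 26.9% and 27.8%) and BCL2 (21.8%, 23.5% and 20.7%). BID stood at 10.8% ± 1.46 and BNIP3 was lowest at 5.49% ± 1.19. BNIP3 was called low without replicate 2 (log2 ratio -1.004).

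Cell cycle genes were closer to the median gene. Of 34 measured cyclins, CDKs and inhibitors 11 were high and none low (median 14.97% ± 1.37). The CDK inhibitors CDKN1B, CDKN1A, which encodes p21 (43.6%, 42.5% and 42.2%), and CDKN2C (21.3% ± 0.873) were high, whereas the kinases CDK6 (15.9% ± 0.487) and CDK4 (7.64% ± 0.432) were not. CDKN2C lost its call without replicate 3 (log2 ratio 0.99). The phosphatase CDC25B was lowest with 5.92% ± 1.62 and was called low without replicate 1 (-1.04). All 28 listed licensing and replication genes were measured and 3 were high, with a median of 11.3% ± 0.3197. Their inhibitor geminin (GMNN) was highest at 29.95% ± 1.37, RFC2, a clamp loader subunit, lowest at 5.66% ± 1.45 (called low without replicate 3, log2 ratio -1.13), and the clamp PCNA stood at the median gene with 10.4%, 10.3% and 10.4%. Of 20 mitotic genes 1 was high, KIF23 with 25.4% ± 2.29, and PTTG1, the securin, was lowest with 6.22% ± 0.822. Replication-dependent histone transcripts lack a poly(A) tail, and 3 of 63 reached 100 reads; H4C3 had 14.8%, 14.2% and 15.2% at 7.86 covered T per read. The linker histone H1-2 was lowest with 3.57% ± 3.75 and lost its low call without replicate 2 (adjusted p = 0.026 by edgeR) or 3 (log2 ratio -0.99).

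The machinery of RNA decay was itself uneven. Of 13 measured regulators of AU-rich decay 7 were high and none low, with a median of 21.004% ± 1.05; next to ZFP36L2, BTG1 (29.2% ± 1.24), which recruits deadenylases, and CELF1 (21.004% ± 1.05) were high, and KHSRP (7.44% ± 0.287) and HNRNPD (6.35% ± 0.315) passed no call and had 11288 and 4857 reads. CNOT4 (37.4% ± 5.77) and CNOT6L (21.1% ± 1.31) of the CCR4-NOT deadenylase list were high, its scaffold CNOT1 had 9.39% ± 1.04 and CNOT11 was lowest with 8.35% ± 1.23. Both CELF1 and CNOT6L lost their calls without replicate 3 (log2 ratio 0.97 each). SMG8 (45.7% ± 8.69) and UPF1 (22.1% ± 2.05), factors of nonsense-mediated decay, were among 4 high of 16 decapping, XRN1 and nonsense-mediated decay genes, of which UPF3B was lowest with 7.21% ± 3.17. The exosome degrades RNA from its 3′ end, and its list had no high and 1 low gene among 15. This was SKIC8 of the SKI complex at 5.26% ± 1.22, which lost its call without replicate 1 (log2 ratio -0.81). EXOSC6 stood at 19.8% ± 1.26.

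The listed genes of transcription, chromatin and splicing ranged from 2.44% (MED25) to 75.3% (CLK1). Of 25 Mediator subunits 8 were high and 3 low, from MED26 (64.6%, 57.8% and 59.01%) to MED25 (2.44% ± 0.578). Of 25 acetyltransferase, deacetylase and BET genes 9 were high and 2 low, with CCNT1, a subunit of the elongation kinase P-TEFb, at 50.6% ± 2.91, the acetyltransferase KAT6A at 34.8% ± 1.42 and the deacetylases HDAC2, HDAC1 and HDAC10 at 7.64% ± 0.426, 6.89% ± 0.608 and 3.92% ± 0.624. Of 14 KMT2 methyltransferases and partners 4 were high and none low, from SETD1B at 44.5% ± 2.15 to PSIP1 at 7.98% ± 2.16. Of 30 genes of RNA polymerase II and the general factors 5 were high (16.7%) and 7 low (23.3%), against 17.1% and 16.7% of all genes. The polymerase subunits POLR2E (3.35% ± 0.421) and POLR2L (3.33% ± 0.436) were low. The general factors GTF2E1 (30.7% ± 11.6) and TAF6 (2.88% ± 1.18) were the highest and the lowest of these 30. The splicing kinase CLK1 had 72.5%, 79.8% and 73.6%, whereas the SR proteins SRSF3, SRSF2 and SRSF6 stood at 12.8% ± 0.882, 14.1% ± 0.552 and 13.8% ± 0.751 and TRA2A was lowest with 8.38% ± 0.874. Of 53 core spliceosome and hnRNP genes 3 were high (5.66%) and 8 low (15.1%), against 17.1% and 16.7% of all genes. PRPF38B stood at 36.4% ± 7.13, HNRNPA1 at 3.55% ± 0.164 and PRPF6 lowest at 3.23% ± 0.3795.

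Stress and nutrient genes held both high and low members. Of 15 integrated stress response genes 5 were high and none low. PPP1R15A, the phosphatase subunit that ends the integrated stress response, had 71.9%, 81.9% and 74.4%; the transcription factor ATF4 had 20.3% ± 0.6302 and did not reach the 2-fold limit; the kinase EIF2AK1 had 5.501% ± 1.04. NFE2L2, which encodes NRF2, had 50.5%, 43.3% and 46.2%, while 3 of 23 genes of the antioxidant list were high and 9 low, such as PRDX2, PRDX1 (4.005% ± 0.541), FTL (2.95% ± 0.206) and FTH1 (4.74% ± 0.2903), the ferritin chains. Of 22 genes of cholesterol synthesis and SREBP 4 were high (18.2%) and 6 low (27.3%), against 17.1% and 16.7% of all genes. INSIG1, the sterol-sensing anchor of SREBP processing, had 21.2% ± 2.904; the enzymes FASN (7.26% ± 1.92) and SCD (7.81% ± 0.415) passed no call, and TM7SF2 was lowest with 1.71% ± 1.17. INSIG1 lost its call without replicate 2 (log2 ratio 0.91) or 3 (0.99), and EIF2AK1 was called low without replicate 2 (-1.09). SLC2A1, the glucose transporter, had 30.5%, 36.6% and 30.3% and was 1 of 3 high genes among 18 in the glycolysis list, whereas 9 were low. GAPDH (4.09%, 3.805% and 4.08%), ENO1 (3.91% ± 0.08097), PKM (2.57% ± 0.217), ALDOA (2.85% ± 0.321) and PFKL (2.43% ± 0.5301) were among those. Of 32 chaperone genes 4 were high (12.5%) and 6 low (18.75%), near the 17.1% and 16.7% of all genes. The heat-inducible DNAJB1 stood at 29.03% ± 1.6998, HSPA8 at 13.4% ± 0.493, HSP90AA1 at 4.11% ± 0.384, the small heat shock gene HSPB1 at 2.87% ± 0.105 and the mitochondrial TRAP1 lowest at 2.72% ± 0.875.

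Genes of the cytosolic ribosome were mostly low against the median gene. Of the 73 measured cytosolic ribosomal protein genes 56 were low (76.7%) and 3 high, with a median of 3.11% ± 0.0282. These genes took up 16.2% ± 0.814 of all reads and 6.10% ± 0.374 of the T>C reads. RPS23 (3.06% ± 0.0774), RPL26 (2.497% ± 0.14998) and RPS6 (2.66% ± 0.0308) had 63278, 56032 and 51545 reads. Their reads covered a median of 15.1 T, and against genes with a similar number of T per read 24 were low and the median log2 ratio was -0.75 in place of -1.74; per covered T, 53 were low and the median was -1.62. The 3 high members differed from the rest in other ways. RPL36A (56.7%, 66.7% and 57.1%) and RPL7 (44.7%, 46.6% and 62.96%) had on average 166.3 and 130.3 reads, against a median of 13933 in the list, and RPL38 (39.2%, 27.9% and 32.7%) had 0.304 conversions inside the 3′ UTR per T>C read and 0.724 per 100 T, near the median gene. RPL7 and RPL36A have near-identical copies in the genome, and how their reads were divided was not tested.

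Other parts of protein synthesis and quality control were less extreme against the median gene. Of 48 translation factors 14 were low and 3 high. EEF2 (4.08% ± 0.0816), EEF1G (2.15% ± 0.1602) and PABPC1 (3.56% ± 0.404), the poly(A)-binding protein, were low, and EIF4A2 (31.2%, 31.3% and 28.8%) was high. Of 18 aminoacyl-tRNA synthetases 7 were low and none high, from WARS1 (3.20% ± 0.330) to EPRS1 (15.2% ± 2.86), and of 73 mitochondrial ribosomal proteins 13 were low and 3 high, with MRPS15 lowest at 1.37% ± 0.216. Ribosome biogenesis factors stood above the proteins they assemble, with 13 of 78 high (16.7%, against 17.1% of all genes) and 4 low. Their median was 12.5% ± 0.104, from BOP1 (2.60% ± 0.759) to SDAD1 (43.5% ± 3.05). DDX21 had 15.04% ± 1.41, NCL, which encodes nucleolin, 9.798% ± 0.682 and NPM1 5.09% ± 0.311. Of 42 proteasome genes 15 were low and 1 high, PSMG1, and PSMB7 was lowest with 2.97% ± 0.437. Of 13 chaperonin and prefoldin genes 3 were low and none high, and CCT8, TCP1 and CCT5 had 5.94% ± 0.239, 8.52% ± 1.03 and 5.77% ± 0.162. PFDN5 was lowest with 1.73% ± 0.4402, and PFDN2 (21.1% ± 2.44) was called high without replicate 1 (log2 ratio 1.03) or 3 (1.05).

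Genes of the respiratory chain and of granules were mostly low. Of 74 measured nuclear genes of oxidative phosphorylation 48 were low (64.9%) and 1 was high, with a median of 4.34% ± 0.164. COX4I1 (2.39% ± 0.189), NDUFB9 (2.95% ± 0.252) and ATP5F1B (4.37% ± 0.199) were low, and UQCRB, the member with the most reads, had 5.37% ± 0.201 and did not reach the limit. Of 21 granule and lysozyme genes 15 were low (71.4%) and none high, with a median of 3.62% ± 0.279. Lysozyme (LYZ) had 3.66%, 3.35% and 3.27% over 22596 reads, RNASE2, an eosinophil-type ribonuclease, 2.66% ± 0.185 and PRSS57, a granule protease, 1.99% ± 0.523, while the protease CTSC was highest with 12.7% ± 2.48. Of 26 myeloid receptors and integrins 9 were low, TYROBP, CD74 (2.38% ± 0.0961), CD63 (2.49% ± 0.266) and CD68 (1.3003% ± 1.15) among them. The chemokine receptor CXCR4 was the only high one of these 26, with 56.8%, 56.2% and 49.3%, and ITGAL, an integrin chain, stood at 5.86% ± 0.434. Of 7 genes of MHC class I presentation 5 were low, with HLA-C at 4.42% ± 0.576, the immunoproteasome subunit PSMB10 at 3.503% ± 1.07 and the trimming peptidase ERAP1 highest at 12.5% ± 1.599. Of 27 cytoskeletal genes 9 were low and none high: ACTB had 5.06% ± 0.299, TMSB4X 4.27% ± 0.639, TMSB10 3.64% ± 0.607, ACTG1 6.48% ± 0.786 and TUBA1B 6.98% ± 0.404, the last 2 short of the limit. ARPC1A (19.4% ± 4.85) was called high without replicate 2 (log2 ratio 1.06).

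ARF6 (32.1% ± 2.797) was high whereas RAC2 (4.42% ± 0.509) and CYBA, a subunit of the NADPH oxidase (1.35% ± 0.477), were low among 14 measured genes of that list. Of 28 ubiquitin-specific proteases 5 were high (17.9%, against 17.1% of all genes) and none low, from USP37 (32.99% ± 5.95) to USP11 (5.64% ± 0.453). Of 15 ubiquitin, BAG and autophagy receptor genes 3 were high and 1 low, from BAG4 (31.3% ± 1.49) to GABARAP (4.91% ± 0.592), which lost its call without replicate 1 (log2 ratio -0.99). Of 9 clathrin and adaptor genes 5 were low and none high, with AP2M1 at 3.46% ± 0.495, AP2S1 at 2.90% ± 0.296 and AP1G1 at 15.6% ± 3.05. The replacement histone H3-3B (13.6% ± 0.2005) lay above H3-3A (5.03% ± 0.777), which was low although the proteins are identical. Of the 9 genes of the replacement histone list 3 were low, with MACROH2A1 lowest at 4.86% ± 0.104 and SLBP, which binds histone mRNA, highest at 16.6% ± 1.08. H3-3A lost its call without replicate 2 (log2 ratio -0.93).

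The lists also differed in abundance. Of all genes with at least 1092 reads 34.4% were low, and the proportions of low genes among proteasome genes (35.7%, median 1379.7 reads), cytoskeletal genes (33.3%, 3667 reads), translation factors (29.2%, 1865 reads) and aminoacyl-tRNA synthetases (38.9%, 1209 reads) lay near this. The 17.8% of the mitochondrial ribosomal proteins (914.0 reads) lay near the 17.4% of all genes with 556.7 to 1091.7 reads. The ribosomal proteins, granule genes (1482 reads) and genes of oxidative phosphorylation (2456 reads) exceeded 34.4%, and the 68.3% high among ZNF genes (229.3 reads) exceeded the 22.9% of all genes with 207.3 to 335.7 reads.

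Some of these counts changed when each gene was compared with genes that had a similar number of covered T per read inside the 3′ UTR. Low were then 40 of 74 genes of oxidative phosphorylation (54.1%) and 13 of 21 granule genes (61.9%), against 24 of 73 cytosolic ribosomal proteins (32.9%), so that the ribosomal proteins moved from the highest to the lowest proportion of the 3. The median log2 ratio of the cytosolic ribosomal proteins (-0.75) was then above those of the granule (-1.38), oxidative phosphorylation (-1.06), chaperonin (-0.88), cytoskeletal (-0.86) and glycolysis (-0.78) lists. Of the mitochondrial ribosomal proteins 4 were low and 5 high (11 and 6 per covered T), and of the aminoacyl-tRNA synthetases 3 were low. Low genes numbered 6 in the chaperonin list, with CCT8 (log2 ratio -1.25) and CCT5 (-1.11) among them, 3 in that of RNA polymerase II and 3 in that of MHC class I presentation. The exosome list then had 1 high gene, EXOSC4 (1.28), and 2 low ones. High genes numbered 2 in the cholesterol list, 1 in that of the core spliceosome and 5 among the cytosolic ribosomal proteins. In the core spliceosome list 11 genes were then low, and 13 per covered T. Of the 299 genes that the rule for naming genes selects or that were named beside it, 33 lost a call and 11 gained one in this comparison, and those described here are given. Low calls were lost by RPS23 (-0.55), RPL26 (-0.84), RPS6 (-0.75), GAPDH (-0.60), POLR2L (-0.87), MED25 (-0.90), BOP1 (-0.79), TRAP1 (-0.72), HDAC10 (-0.20), TMSB10 (-0.97), PSMB10 (-0.34), H1-2 (-0.33), TM7SF2 (-1.46, adjusted p = 0.025 by edgeR) and H3-3A (-0.28), and high calls by BCL2 (0.90), CDKN2C (0.86), CELF1 (0.97), CNOT6L (0.85) and INSIG1 (0.75). Calls were gained by ATF4 (1.33), H4C3 (1.72) and BATF (1.04), which were high, and by BNIP3 (-1.24) and UQCRB (-1.13), which were low. Counted as conversions per covered T, ACTB (-0.90), H3-3A (-0.82), SNHG29 (-0.92), SKIC8 (-0.87), HDAC10 (-1.16, adjusted p = 0.038 by edgeR), PSMB10 (-0.59), H1-2 (-2.48, adjusted p = 0.022 by edgeR), MED25 (-1.57, adjusted p = 0.046 by edgeR), KLF16 (0.99) and RPL38 (0.046) lost their calls. By the same count HDAC1 (-1.52), USP11 (-1.22), HNRNPD (-1.37), EIF2AK1 (-1.11), BNIP3 (-1.63), UQCRB (-1.49), CCT8 (-1.14) and CCT5 (-1.10) were low, and EXOSC6 (1.04), ATF4 (1.04), H4C3 (1.27), ARPC1A (1.29) and PFDN2 (1.06) high.

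Noncoding RNAs were spread over much of the same range. The 88 measured long noncoding RNAs had a median share of 14.2% ± 0.803, with 26 high (29.5%) and 6 low, against 10.4% ± 0.159 for 6473 protein-coding genes, of which 16.96% were high. The noncoding RNAs had fewer reads (median 240.7 against 431.7), and 30.8% of all genes with 101.0 to 207.0 reads and 22.9% of those with 207.3 to 335.7 were high, so that their 29.5% is near that of other genes at this depth. Of 14 measured snoRNA host genes and well-known nuclear RNAs 8 were high and 1 low. SNHG1 led with 69.7% ± 2.25, whereas GAS5 had 13.9%, 13.4% and 11.8%, SNHG6 10.9% ± 0.542 and SNHG29 5.22% ± 0.506 over 23439 reads. The nuclear RNA MALAT1 had 5.14%, 5.24% and 5.54% and was just short of a low call (log2 ratio -0.98 ± 0.059, SE). Without replicate 3 it was called low (-1.02), and SNHG29 lost its call without replicate 2 (-0.94) or 3 (-0.996).

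The 3′ UTRs of high and low genes differed in length and in AU-rich elements, which the choice of genes did not use. From the lowest to the highest decile of the genes by share, the median length of the most used 3′ UTR rose from 350 to 1776 bases and the median number of covered T per read from 22.4 to 33.2. The nonamer TTATTTATT was present in 7 of 663 genes (1.06%) of the lowest decile and in 90 of 663 (13.6%) of the highest, and the pentamer ATTTA, which the nonamer contains, in 27.9% and 86.4%. In 3′ UTRs of 1000 to 2000 bases alone, the nonamer was found in 0 of 76 genes of the lowest decile, in 5 of 200 (the sixth) to 11 of 152 (the seventh) of the second to eighth with no steady order, and in 22 of 189 and 22 of 190 (11.6% each) of the highest 2. Only the transcript strand was searched.

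Seen from the motif, the 462 genes with the nonamer had a median share of 15.9% ± 0.201 (SD over the 3 libraries) and 32.3% of them were high and 3.03% low. The 6165 genes without it had 10.1% ± 0.181, with 15.98% high and 17.8% low. Among 3′ UTRs of 1000 to 2000 bases the median was 18.5% ± 2.28 in 91 genes with it and 11.4% ± 0.254 in 1475 without, at 32.9 and 31.7 covered T per read. The Pumilio motif TGTANATA was in the 3′ UTR of 26.5% of the genes, and in the same length class the 413 genes with it had a median of 13.9% ± 0.247 and the 1153 without it 10.9% ± 0.148, at 33.8 and 31.1 covered T per read. These are descriptions of genes, which are not independent replicates, and a motif match is not evidence that a protein binds it.

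**Figure D4:**
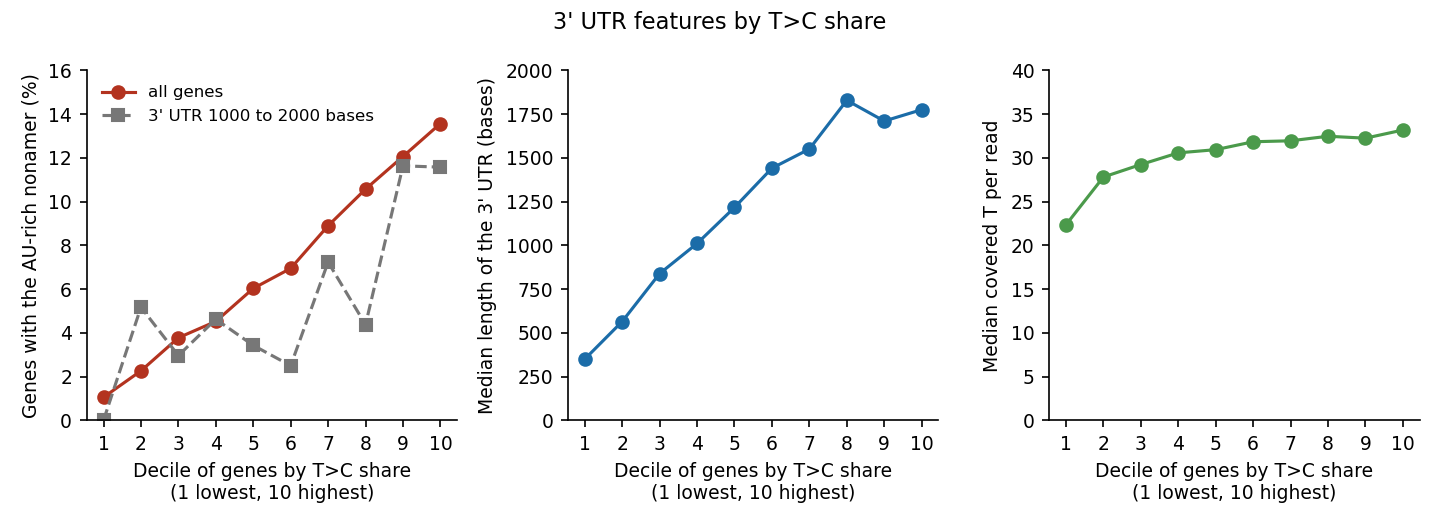
Percentage of genes with the nonamer (left), median length of the most used 3′ UTR in bases (middle) and median covered T per read (right) in deciles of the 6627 genes ordered by T>C share. The nonamer percentage goes from 1.06% to 13.6% and the length from 350 to 1776 bases; in 3′ UTRs of 1000 to 2000 bases (grey squares) the nonamer is at 0 in the lowest decile, at most 7.24% in the second to eighth and at 11.6% in the last 2.

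Few conversions per T>C read were rarer among high genes than among all genes. High genes had a median of 2.34 conversions per T>C read, and 47 of the 1134 (4.14%) had fewer than 1.5, against 866 of all 6627 genes (13.1%) and 45.6% of the lowest decile. Fewer than 1 conversion inside the 3′ UTR per T>C read was found for 141 genes, 2 of them high, and RPS6 had 0.704. MRPL47, of the mitochondrial ribosome, had 47.6%, 47.4% and 52.2% with 1.10 conversions per T>C read. ATP5F1C, the 1 high gene of oxidative phosphorylation, had 42.8%, 37.4% and 39.1% with 1.21, and PSMG1, the 1 high proteasome gene, 33.4%, 43.5% and 31.8% with 1.31. OS9, a lectin of endoplasmic reticulum quality control, had 41.1%, 45.4% and 44.1% with 1.07, and UBXN6 59.9%, 58.2% and 57.4% with 1.16; both are named after their values were seen. On average these T>C reads carried little more than 1 conversion, at 30.5 covered T per read in ATP5F1C and 24.5 in OS9, and whether they all stem from 4sU was not tested. Without the genes under 1.5 conversions per T>C read the median gene rose to 11.3%, and 913 genes were high and 874 low.

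Genes just inside and just outside the limit of 100 reads had similar shares. The 248 genes whose lowest library had 100 reads or up to 9 more had a median share of 15.5% ± 1.17, and the 277 genes with 90 to 99 reads had 15.7% ± 0.272.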

How the data were processed

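RNA of the DMSO-treated MOLM-13 cells was alkylated and sequenced from its 3′ ends in 3 libraries. Per the labels and the study's methods, the authors processed the reads with SLAM-Dunk on GRCh38 and a 3′ UTR annotation from RefSeq and Ensembl with default settings. The deposited tables give, for each of 58136 3′ UTR entries, read counts, counts of T>C reads, conversions and multimapped reads, and a coverage signal (T positions covered by reads). The deposited number of T in each 3′ UTR equals that in the reference sequence for 100% of 25420 genes, which fixes the build. The file headers do not define a T>C read, which was taken to hold at least 1 conversion; for differential expression the authors used reads with 2 or more.

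Entries were summed by Entrez identifier, and 99.6% of the genes received a symbol. T>C reads of genes with at least 100 reads in each library were fitted with edgeR 4.0.16 (R 4.3.3), with an intercept and the offset log(reads × share of the library's median gene). Because the package's test needs a second coefficient, its quasi-likelihood F statistic was computed against the offset alone. The procedure was tested on simulated data. DESeq2 1.42.0 and limma 3.58.1 served as alternatives. Calls required an adjusted p of at most 0.01 and a ratio of 2 or more in either direction. Between pairs of libraries the chi-square per degree of freedom of the shares was 2.40 to 2.63, so no library was a copy of another.

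The genes, the lists and the tests were chosen with earlier results of these data known. The rule for naming genes took the 10 highest shares with at least 300 reads and 1.5 conversions per T>C read, the 10 lowest with at least 1000 reads (both with at most 10% multimapped reads and no overlapping 3′ UTR), and, in each list, the highest, the lowest and up to 4 others with the most reads, of which the text gives a part; DUSP2, the carriers of the nonamer, genes with many reads or few conversions and a few list members were named after their values were seen. The C646 libraries were not used. Results for some genes and 1 list are not reported here.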

Additional observations from a re-analysis of the deposited data

How the results depend on the processing

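The 10 highest and the 10 lowest genes kept their direction and their call in all 285 combinations of a gene with an alternative that tested it, including conversions per covered T, genes of similar T per read as the reference, DESeq2 and limma. They were chosen as the extremes of the same shares and lie far beyond the limit, so this says nothing about other calls. Leaving out 1 library gave 1127 to 1150 high genes, 991 to 1044 low genes and a median-gene share of 10.4% to 10.5%. Of 288 genes named by the rule for lists or extremes, 10 lost a call and 9 gained one when a library was left out; of 11 genes named outside it, EIF4A1 lost its call. Those described above are given with their values. Counts of calls moved by over 1.5 times in 3 settings: the pooled share as the reference gave 1721 high and 659 low genes, a minimum of 500 reads 365 and 359 (of 2462 tested), and no minimum 2286 high (of 12168 tested). The share of the median gene was 11.1% with a minimum of 50 reads, 7.79% with 500, 11.6% with none and 11.3% without genes under 1.5 conversions per T>C read. Against genes of similar T per read 1124 genes were high and 908 low, and 916 high and 725 low genes kept their call. Per covered T, 1080 high and 885 low genes kept their call and 1 changed sides, the microRNA entry MIR6805, whose reads covered 0.0160 T each.

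Of 334 list medians under an alternative, 322 kept their sign relative to the median gene. With a minimum of 500 reads, where the median gene is itself lower, the log2 median turned to 0.36 for the RNA exosome, 0.0471 for mitochondrial ribosomal protein genes, 0.0628 for translation factors, 0.34 for replication-dependent histones and 0.24 for NADPH oxidase and GTPase genes, and to -0.0828 for Mediator, -0.26 for FLT3-STAT5 genes and -0.0109 for ubiquitin, BAG and autophagy receptors. Against genes of similar T per read it turned to 0.10 for the exosome, -0.12 for licensing genes and -0.0386 for mitotic genes, and per covered T to -0.0683 for licensing genes. Several log2 medians moved by over 1.5 times without a change of sign, and those of the AP-1 genes and cytosolic ribosomal proteins are given above. Replacement histones went from -0.52 to -0.17 against genes of similar T per read. CCR4-NOT genes went from 0.24 to 0.63 with a minimum of 500 reads, and antioxidant genes from -0.38 to -0.73 without replicate 3. These are examples, and the cause of the moves and reversals was not tested. No paired analysis was possible because only the DMSO group is described.

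Depth limits the genes near 100 reads, where a low share rests on few T>C reads, and without an unlabelled library the part of sequencing errors in the lowest shares is unknown. No test for a deviating library was run.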
